A study of Sus scrofa with 12 samples.

Results

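The insulin, AKT and mTOR growth pathway was followed in skeletal muscle of newborn pigs through the probe sets that carry the symbol of 1 of 10 genes. These genes are IRS1, PDPK1, AKT1, AKT2, TSC2, DDIT4, MTOR, RPS6KB1, EIF4EBP1 and SLC2A4. A probe set is a group of short probes on an Affymetrix array whose joint brightness follows the amount of 1 labelled RNA. Of the 24123 probe sets in the table, 11 belonged to 7 of the 10 genes, with 3 for SLC2A4, 2 each for AKT1 and PDPK1 and 1 each for AKT2, TSC2, DDIT4 and IRS1. The probe table lists DDIT4 under 2 gene identifiers with the same symbol, so its probe set was kept. No probe set carried the symbol MTOR, RPS6KB1 or EIF4EBP1, and these 3 genes were not analysed here.

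The 12 arrays were made from muscle sampled in the first 24 hours of life (day 0) and on days 7, 14 and 21 after it, with 3 biological replicates at each age. No treatment or genetic change is named, and the labels used here do not give the muscle, breed, sex or litter. The labels used here do not say whether the ages differ in the animals sampled or whether replicates of one number are related. The p-values set the differences between ages against the spread among arrays of one age, with the arrays taken as independent.

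Insulin and the insulin-like growth factors bind receptors that recruit adaptor proteins such as IRS1 and so switch on a lipid kinase. Its lipid product brings the kinases PDPK1 and AKT together at the membrane, and active AKT releases mTOR from the brake set by TSC2. The mTOR kinase then drives protein synthesis through S6 kinase and the eIF4E-binding proteins, while AKT also sends the glucose transporter SLC2A4 (GLUT4) to the surface of muscle fibres. In newborn pigs this route is known for carrying the rapid muscle protein synthesis that follows feeding. Most of its control is by phosphorylation and by movement of proteins, which an array of RNA levels does not measure.

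Values are deposited MAS5 signals, in arbitrary units scaled to the same trimmed mean on each array (500.1). Changes are differences of mean log2 signal ± SE between 2 ages with n = 3 arrays each, and adjusted p-values are those of limma, adjusted by Benjamini-Hochberg across the 14399 probe sets tested. A probe set was tested if its mean log2 signal over all 12 arrays lay above the lowest 40%, a limit at a signal of 90.3. This left 7 of the 11 member probe sets, which stand for 6 genes, and the threshold was an adjusted p of 0.05. Markers of skeletal muscle were bright, with CKM between 36117 and 60467 and TNNT3 between 33205 and 60154 in the 12 arrays. Over the 7 of 10 listed muscle markers that were tested, the summed signal was 193137 to 265427 at day 0 and 265787 to 344107 at day 21. Between these ages TNNT3 (0.52, limma adjusted p = 0.0297) and PYGM (1.44, 0.00297) rose, while DES was at -0.38 (0.0932). The day 0 arrays differed from the 9 later ones in their control probe sets. The hybridization controls, added in fixed amount, averaged 12.55 ± 0.13 (SD, n = 9) on the log2 scale in the later arrays and 12.20 ± 0.09 (SD, n = 3) at day 0 (day 0 minus later was -0.35, with p = 0.00455 in a two-sided exact permutation test, or 0.00909 adjusted over 2 measures). For the poly-A spike RNAs, the log2 ratio of 3' over 5' signal averaged 0.51 ± 0.10 (SD, n = 9) in the later arrays and 0.98 ± 0.53 (SD, n = 3) at day 0, with 1.59 in day 0 replicate 2 (permutation test, exact and two-sided, p = 0.00909, adjusted 0.00909). When arrays were scaled on the hybridization controls, the median change over all probe sets shifted by -0.38 (day 21 minus day 0) or -0.31 (day 7 minus day 0). Both values are given for many of the results that turn on this scale, but not for all. The muscle marker values above are on the deposited scale only.

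None of the 7 member probe sets passed a test over age. In the limma F test over the 4 ages, 0 of 7 passed, with adjusted p-values from 0.215 to 0.952 and 0 of 7 at an unadjusted p under 0.05, where 8.88% of all probe sets passed. Between day 21 and day 0, 0 of 7 passed against 11.5% of all probe sets (6.61% higher and 4.9% lower), and 2 of 7, both of PDPK1, had an unadjusted limma p under 0.05. Between day 7 and day 0, 0 of 7 passed against 9.4% of all (5.76% higher and 3.64% lower), and 0 of 7 had an unadjusted limma p under 0.05. Between day 14 and day 7, 0 of 7 passed (unadjusted, 0 of 7), against 0.00694% of all, and between day 21 and day 14, 0 of 7 passed against 0% of all. In that last week DDIT4 alone of the 7 had an unadjusted limma p under 0.05, as did 436 of the 14399 probe sets. Counted by values alone, 2 of the 7 had all 3 day 21 signals below those of day 0 and 0 above, where 13.7% of all probe sets lay below and 15.3% above. Between day 7 and day 0, 1 lay below and 1 above, where the shares of all were 13.7% and 14.9%. In the second week 0 lay above or below, where 6.81% of all lay above and 7.33% below, and in the third 0, where the shares were 4.41% and 4.03%. The median change of the members was -0.04 between day 21 and day 0, where the median of all tested probe sets was 0.02. It was -0.13 between day 7 and day 0 (all probe sets 0.00). With 3 arrays per age, a fit of simulated data found 36 of 100 changes of 2-fold and 92 of 100 of 4-fold. It compared day 21 with day 0 among 14399 probe sets, with 100 changes of each size. In the deposited data 1657 probe sets passed between these ages, so these shares do not carry over to the reported tests. How large a change the reported tests could find was not tested, and a missed test does not show an equal level. The intervals below are 95% intervals from the same limma fit, with no adjustment for the number of probe sets.

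**Figure D1:**
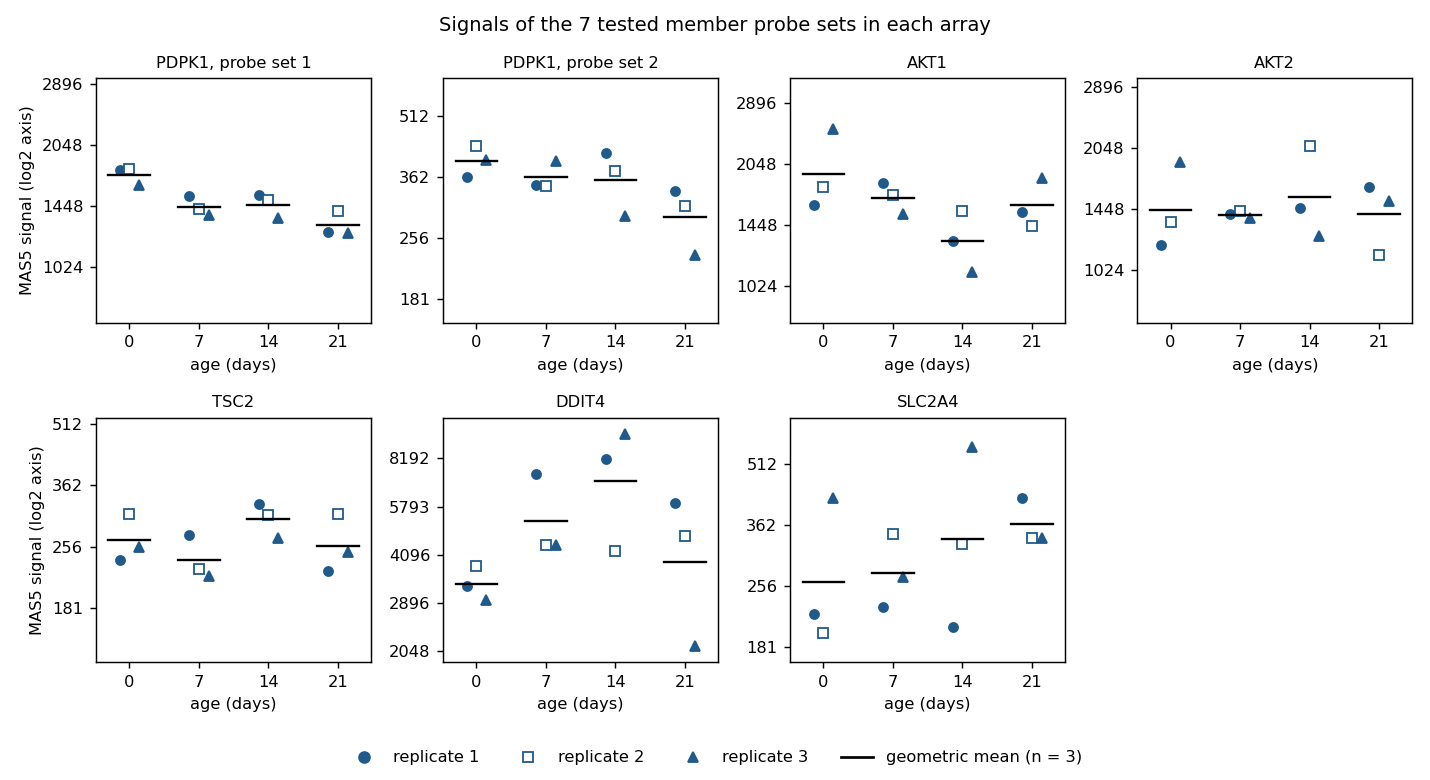
MAS5 signal (log2 axis, whose range differs between panels) of the 7 tested member probe sets against age in days, with a symbol for each replicate and a line for the geometric mean of the 3 arrays. The signals of PDPK1 probe set 1 stay between 1247 and 1793, while those of DDIT4 run between 2125 and 9781.

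PDPK1 encodes the kinase that phosphorylates AKT in its activation loop, and it was the member whose lower level at day 21 came nearest to the threshold. Its brighter probe set, called probe set 1 here, read 1779, 1793 and 1631 at day 0, then 1530, 1421 and 1379 at day 7. It read 1539, 1496 and 1354 at day 14 and 1251, 1405 and 1247 at day 21. All 9 later arrays lay below all 3 day 0 arrays, a pattern whose share over all probe sets was not counted. The day 21 values were lower than those of day 0 by 0.41 ± 0.14 on the log2 scale (a change of -0.41, 95% interval -0.72 to -0.11, limma adjusted p = 0.0730). The change between day 7 and day 0 was -0.26 ± 0.14 (adjusted p = 0.264), and those of the later weeks were 0.02 ± 0.14 and -0.17 ± 0.14. The spread of this probe set within an age was small, with a pooled SD of 0.0878 on the log2 scale, where the median of all tested probe sets was 0.328.

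The other PDPK1 probe set, probe set 2, read 361, 430.1 and 398 at day 0 and 346, 344 and 395 at day 7. It read 415, 374 and 289.9 at day 14 and 334, 306 and 233 at day 21. Here too the day 21 arrays lay below all day 0 arrays, while days 7 and 14 overlapped with day 0. Between day 21 and day 0 its change was -0.46 ± 0.21 (95% interval -0.91 to -0.01, limma adjusted p = 0.173), and without day 21 replicate 3 it was -0.31. Among all tested probe sets, 13.7% had their 3 day 21 values below the 3 day 0 values, so that such a separation is common on these arrays. With arrays scaled on the hybridization controls both PDPK1 probe sets passed between day 21 and day 0, at -0.80 (limma adjusted p = 0.00990) and -0.84 (adjusted p = 0.0343). A straight line through the 12 arrays, chosen after seeing the data, gave a slope of -0.12 ± 0.05 per week for probe set 1 (limma adjusted p = 0.113) and -0.14 ± 0.07 for probe set 2 (adjusted p = 0.194), where 6.65% of all probe sets passed and 2.72% passed with a fall.

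AKT1 and AKT2 encode related forms of the AKT kinase. In mice AKT2 is the form most tied to glucose uptake and AKT1 the one most tied to body growth. The tested AKT1 probe set read 1623, 1797 and 2499.7 at day 0, 1841, 1716 and 1544 at day 7, 1329, 1570.0 and 1113 at day 14, and 1560.4, 1447 and 1898 at day 21. Its highest value was in day 0 replicate 3 and its lowest in day 14 replicate 3, and the day 14 arrays all lay below all day 0 arrays. Day 14 was not tested against day 0, and the share of all probe sets with such a separation was not counted. Day 21 overlapped with day 0, with a change of -0.26 ± 0.20 (95% interval -0.68 to 0.17, limma adjusted p = 0.437). In the second week the change was -0.36 ± 0.20 (adjusted p = 0.882) and in the third week 0.29 ± 0.20 (adjusted p = 1). Without day 0 replicate 3 the change between day 21 and day 0 was -0.07, and on the hybridization control scale it was -0.64 and passed (limma adjusted p = 0.0256).

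AKT2 read 1179.5, 1344 and 1887 at day 0 and 1408, 1428 and 1372 at day 7. It read 1453, 2067 and 1243 at day 14 and 1638, 1116 and 1513 at day 21. The 4 ages overlapped, and the lowest and highest values of the series, 1116 and 2067, came at adjacent ages. The day 7 arrays differed little among themselves (SD 0.03 on the log2 scale), whereas the SD was 0.35 at day 0, 0.38 at day 14 and 0.29 at day 21. The change between day 21 and day 0 was -0.04 ± 0.23 (95% interval -0.53 to 0.45, limma adjusted p = 0.938), an interval that leaves out a 2-fold change, which is 1 on this scale, in either direction. The sign of this change turned without day 0 replicate 3 (0.16) and without day 21 replicate 2 (0.13).

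TSC2 encodes the GTPase-activating subunit of the complex that holds RHEB, the activator of mTOR, in its inactive form, and AKT phosphorylates it to lift the brake. Its probe set read 237, 308 and 255 at day 0, 274, 225 and 216 at day 7, 327, 307 and 269 at day 14, and 223, 308 and 248 at day 21. All 12 values lay between 216 and 327, and no neighbouring ages were separated. The change between day 21 and day 0 was -0.04 ± 0.21 (95% interval -0.50 to 0.42, limma adjusted p = 0.924), and without day 0 replicate 2 or day 21 replicate 1 it was 0.07 and 0.06. The widest of the weekly changes was the second week's, 0.34 ± 0.21 (adjusted p = 0.913).

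DDIT4, also called REDD1, encodes a protein that is induced by stress, low oxygen and glucocorticoids and that acts through the TSC complex to restrain mTOR. It was the most variable tested member, with a pooled SD within ages of 0.554 on the log2 scale and a 4.60-fold range over the 12 arrays. Its probe set read 3274, 3778 and 2958 at day 0 and 7316, 4382 and 4400.4 at day 7. It read 8155, 4198 and 9781 at day 14 and 5922, 4699 and 2125 at day 21. Every day 7 and day 14 array lay above every day 0 array, and the day 21 arrays ran from the lowest signal of the series, in replicate 3, to a value within the day 7 range. Day 14 was not tested against day 0, and the share of all probe sets separated in that way was not counted. In the first week the change was 0.65 ± 0.37 (95% interval -0.14 to 1.44, limma adjusted p = 0.294), and 14.9% of all probe sets had their day 7 values above those of day 0. The second week's change was 0.42 ± 0.37 (adjusted p = 0.967). The third week's change was -0.83 ± 0.37 (95% interval -1.63 to -0.04, adjusted p = 1), with an unadjusted limma p of 0.0408 that did not survive adjustment, and without day 21 replicate 3 it was -0.40. From end to end, day 21 minus day 0 was 0.23 ± 0.37 (adjusted p = 0.731). Leaving out day 21 replicate 3 gave 0.67, leaving out day 21 replicate 1 gave -0.07, and the change was -0.15 on the hybridization control scale.

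SLC2A4 encodes GLUT4, the glucose transporter that insulin and contraction bring to the surface of muscle and fat cells. Its tested probe set, probe set 1, read 218, 196 and 422 at day 0 and 228, 343 and 269.6 at day 7. It read 203, 325 and 564 at day 14 and 421.5, 337 and 337 at day 21. At days 0 and 14 replicate 3 was far above the others, and the 4 ages overlapped. The geometric mean was higher at each later age, but the change between day 21 and day 0 was 0.47 ± 0.36 (95% interval -0.31 to 1.25, limma adjusted p = 0.436). Left out singly, day 0 replicate 3 gave 0.81, day 0 replicate 2 gave 0.26 and day 21 replicate 1 gave 0.36, and the change was 0.09 on the hybridization control scale. The first week's change was 0.07 ± 0.36 and turned to -0.23 on that scale. Markers of fat cells, which also make GLUT4, had a summed signal of 6511 to 7538 at day 21 and 5688 to 8801 at day 0 over the 4 of 8 listed markers that were tested, FABP4, LPL, LEP and PPARG. In such bulk tissue, fewer cells of a type and less RNA per cell cannot be told apart.

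**Figure D2:**
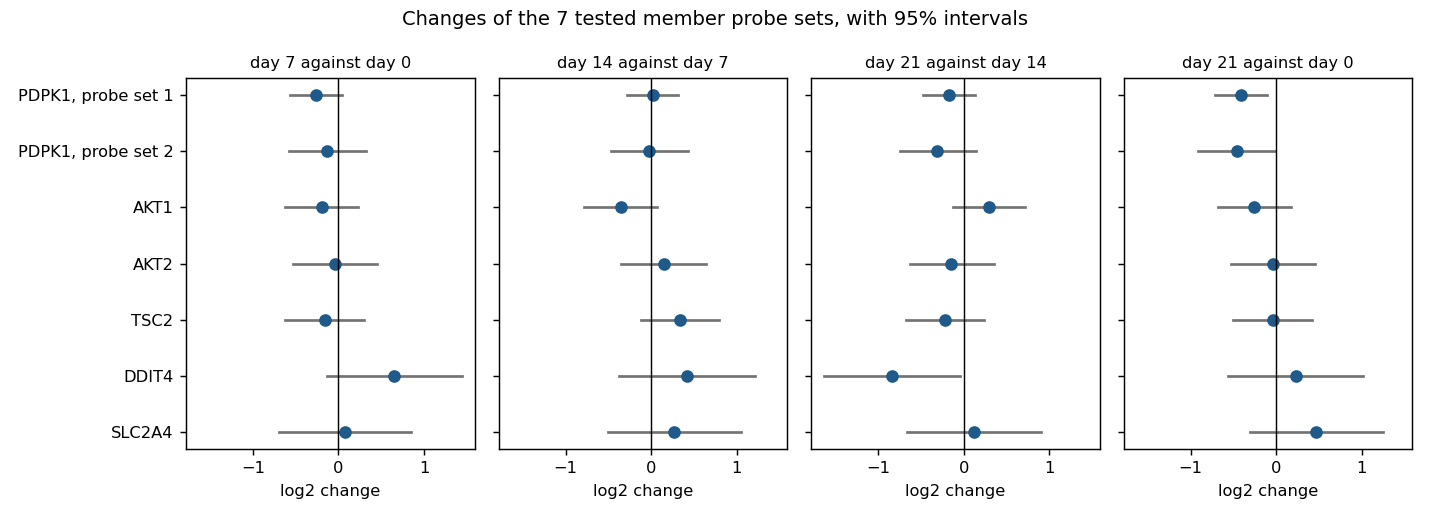
Log2 change of each tested member probe set (points) with its 95% interval from limma (lines), in 4 comparisons of ages. The day 21 against day 0 intervals of both PDPK1 probe sets lie below 0, at -0.72 to -0.11 and -0.91 to -0.01 before adjustment for the number of probe sets tested.

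The other 4 member probe sets lay below the limit on signal and were not tested. IRS1, the docking protein that the insulin receptor phosphorylates, was read by 1 probe set only. Its 12 signals ran from 3.2 to 80.6, a 25.2-fold range, with 47.2, 21.0 and 35.3 at day 21 and 25.4, 53.3 and 3.2 at day 0. No array reached the limit of 90.3, so no statement on IRS1 over age could be made from this probe set. The dim AKT1 probe set ran from 6.3 to 85.1, against 1113 to 2499.7 for the bright one, with the highest value of each in a different array. SLC2A4 probe set 3 read 17.6, 54.2 and 60.4 at day 0, 28.8, 60.2 and 66.1 at day 7, 98.7, 85.3 and 83.4 at day 14, and 94.7, 43.3 and 46.6 at day 21. SLC2A4 probe set 2 read 81.0, 13.3 and 134.5 at day 0, 94.2, 22.5 and 94.2 at day 7, 149.6, 11.1 and 160.0 at day 14, and 115.9, 17.6 and 163.3 at day 21. In that probe set replicate 2 was the lowest array at every age. With no filter on signal, the limma F test gave these 4 probe sets adjusted p-values of 0.814 (AKT1), 0.995 and 0.617 (SLC2A4) and 0.900 (IRS1).

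**Figure D3:**
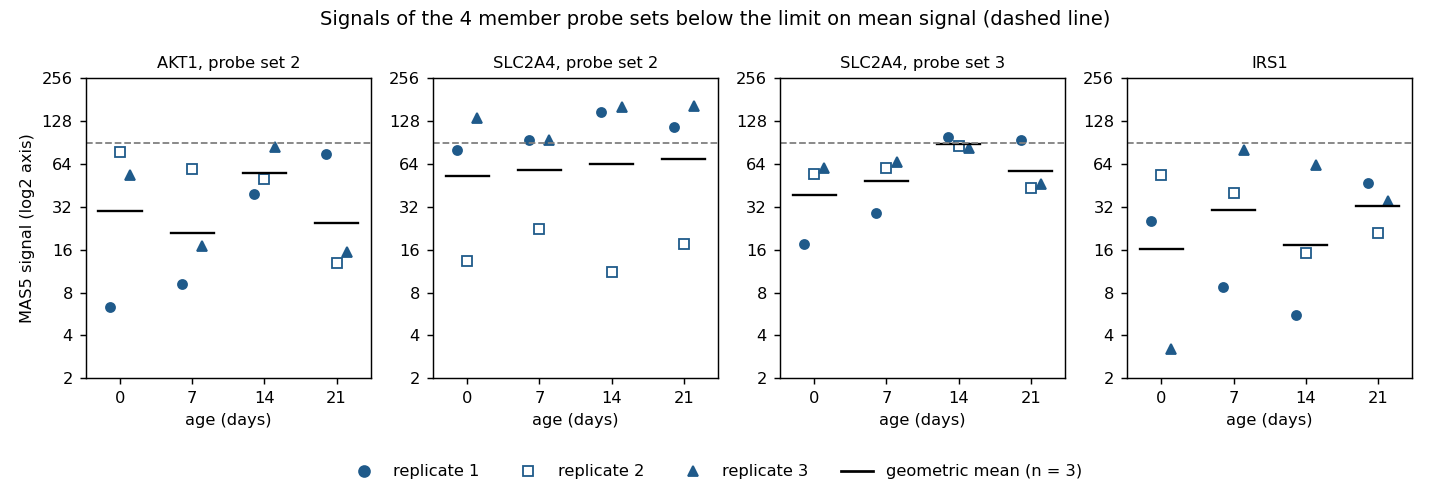
MAS5 signal (log2 axis) of the 4 member probe sets whose mean signal lay below the limit of 90.3 (dashed line), against age in days, with a symbol for each replicate and a line for the geometric mean of the 3 arrays. Replicate 2 of SLC2A4 probe set 2 stays between 11.1 and 22.5 at all 4 ages, and the other arrays of that probe set lie between 81.0 and 163.3.

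Other genes of the pathway were taken in 8 lists beside the members, from receptors to glucose uptake, each gene standing in 1 list and read by its brightest tested probe set. Of the 114 genes listed, 62 had a probe set with their symbol and 59 were tested. The lists were chosen with earlier results of these data known. In the limma F test over age 12 of the 59 passed (20.3%), where 11.2% of all 5320 genes did. At an unadjusted limma p under 0.05 the F test had 18 of the 59 and 1574 of all 5320 genes. Unadjusted counts were 24 of 59 (all genes 1688) between day 21 and day 0 and 13 of 59 (all genes 1565) between day 7 and day 0. Between day 21 and day 0, 5 rose and 5 fell, each 8.47% of the 59, where 7.39% of all genes rose and 7.07% fell. Between day 7 and day 0, 4 rose (6.78%, all genes 6.54%) and 6 fell (10.2%, all genes 5.19%). In the second week 0 of 59 passed in limma (4 at an unadjusted p under 0.05) and 0 of all 5320 genes (367 unadjusted). In the third, 0 of 59 passed (2 unadjusted) and 0 of 5320 (157 unadjusted). The median change of the 59 between day 21 and day 0 was 0.01, and that of all genes was -0.02. On the hybridization control scale 2 of the 59 rose and 12 fell between day 21 and day 0, so the balance of directions depends on the scale.

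Among receptors and adaptors, 7 genes were tested and 1 rose between day 21 and day 0. This was GRB10, an adaptor that binds the insulin receptor and dampens its signal. GRB10 read 4161, 2889 and 3461 at day 21 and 1967, 1849 and 1398 at day 0, with no overlap, a change of 1.01 ± 0.27 (limma adjusted p = 0.0285). A second GRB10 probe set rose as well, by 1.29 ± 0.34 (adjusted p = 0.0286). At day 7 the values (1895, 1414 and 1468) still lay within the range of day 0, and day 14 replicate 3 stood at 4797 against 2109 and 2564 in the other day 14 arrays. This call ended when day 0 replicate 2 (1.06, adjusted p = 0.0555) or 3 (0.86, 0.0693) or day 21 replicate 1 (0.88, 0.108) or 3 (1.01, 0.0798) was left out, on the hybridization control scale (0.63, 0.129), with the poly-A spike ratio as covariate (1.02, 0.0805) and without a variance trend (0.0505). It held in 13 of 20 alternatives. GRB2, the adaptor that links receptors to RAS, passed in the first week, with 1365, 1402 and 1403 at day 7 and 642, 942 and 1002 at day 0 (0.72 ± 0.20, limma adjusted p = 0.0417). It kept its call in 6 of 20 alternatives, and 9 single arrays ended it (the 3 of day 7, the 3 of day 14, day 0 replicates 1 and 2 and day 21 replicate 3), with adjusted p-values from 0.0513 to 0.115. With the poly-A covariate its limma adjusted p was 0.128, and on the hybridization control scale it was 0.196 (a change of 0.41). A second GRB2 probe set lay the other way, at -0.37 ± 0.28 (limma adjusted p = 0.435), so the 2 probe sets of this gene disagreed. GRB2 was named after its values were seen.

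The receptors themselves did not pass. INSR, the insulin receptor, read 45.3, 87.2 and 96.7 at day 21 and 161.8, 70.7 and 110.1 at day 0, with a change of -0.57 ± 0.45 (limma adjusted p = 0.443). IGF1R, the receptor of insulin-like growth factor 1, read 288, 237 and 183 at day 21 and 297, 173 and 226 at day 0 (0.04 ± 0.35, adjusted p = 0.961). Of the lipid kinases and phosphatases only 3 of 12 listed genes were tested, and INPPL1, a phosphatase that breaks down the lipid product of the kinase, rose. INPPL1 read 989.9, 922 and 983 at day 7 against 318, 610.4 and 470.4 at day 0 (1.10 ± 0.25, limma adjusted p = 0.0197), and 730.4, 943 and 805 at day 21 (0.87 ± 0.25 against day 0, adjusted p = 0.0420). Leaving out day 0 replicate 1 ended the day 7 call (0.85, adjusted p = 0.0518), as did leaving out day 7 replicate 1, 2 or 3 (0.0657, 0.0576 and 0.0606). The day 21 call held in 8 of 20 alternatives. It ended when any of the day 7 or day 21 arrays, day 0 replicate 1 (0.62, adjusted p = 0.121) or 3, or day 14 replicate 1 was left out, and on the hybridization control scale (0.49, adjusted p = 0.173).

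Protein phosphatase 2A removes phosphate from AKT among many other proteins, and 2 of its genes fell in both comparisons with day 0. PPP2CA, a catalytic subunit, read 6825, 4957 and 4733 at day 0, 3502, 2977 and 3397 at day 7, and 2507, 2744 and 2718 at day 21. Its change was -1.03 ± 0.16 between day 21 and day 0 (limma adjusted p = 0.00237) and -0.73 ± 0.16 between day 7 and day 0 (adjusted p = 0.0175). A second PPP2CA probe set also fell by day 21 (-0.91 ± 0.25, limma adjusted p = 0.0331). It missed the threshold at day 7 (-0.735 ± 0.251, limma adjusted p = 0.0844) and in the F test over age (adjusted p = 0.0638). PPP2R1A, the scaffold subunit, read 2230.2, 2583 and 1879.9 at day 0, 1111, 1106 and 1009 at day 7, and 1017, 1151 and 1149.9 at day 21. It was lower at day 21 by about 2-fold (-1.003 ± 0.165, limma adjusted p = 0.00297) and at day 7 (-1.04 ± 0.17, adjusted p = 0.00313). Leaving out day 7 replicate 2 ended the day 7 call on PPP2CA (-0.66, adjusted p = 0.0751). The poly-A covariate ended the day 7 calls on both PPP2CA (-0.84, adjusted p = 0.0706) and PPP2R1A (-0.86, adjusted p = 0.0591). PPP2CB, the other catalytic subunit, read 5487, 6408 and 7432 at day 21 and 4767, 4474 and 4355 at day 0 (0.50 ± 0.14, limma adjusted p = 0.0341). Its call held in 9 of 20 alternatives. It ended when 1 of 6 arrays was left out (replicates 2 and 3 of day 0, 1 and 2 of day 7, and 2 and 3 of day 21, the last at 0.39 with adjusted p = 0.146), with the poly-A covariate (adjusted p = 0.0830), and with hybridization control scaling, where it was 0.12. PPP2CB, too, was named after its values were seen. FOXO1, a transcription factor that AKT shuts out of the nucleus, did not pass (-0.43 ± 0.42 between day 21 and day 0, limma adjusted p = 0.543), and without day 0 replicate 1 its change was 0.08.

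None of the 4 tested genes of the mTOR complexes and their inhibitors passed any test in limma, and 0 of the 4 had an unadjusted p under 0.05 in any. They were MAPKAP1, AKT1S1, TTI1 and FKBP1A. Of the 12 genes around TSC and RHEB 1 fell, PRKAG1, a regulatory subunit of the energy sensor AMPK, which restrains mTOR. PRKAG1 read 1049, 1000.4 and 847 at day 21 and 1590.2, 1744 and 1604 at day 0 (-0.78 ± 0.16, limma adjusted p = 0.00904). A second PRKAG1 probe set was at -0.60 ± 0.21 (adjusted p = 0.0874). RHEB, the small GTPase that TSC2 acts on, read 2805, 2673 and 3234 at day 21 and 4904, 2699.8 and 2879.6 at day 0 (-0.22 ± 0.20, limma adjusted p = 0.520), and without day 0 replicate 1 its change was 0.05. Of 9 genes of amino acid sensing at the lysosome 1 fell, RRAGA, a GTPase that brings mTOR to the lysosome when amino acids are plentiful. RRAGA read 3062, 2348 and 2721 at day 21 and 4178, 4417 and 4404 at day 0 (-0.69 ± 0.14, limma adjusted p = 0.00897). The day 21 calls on PPP2CA, PPP2R1A, PRKAG1 and RRAGA each held in all 20 alternatives.

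PRKAG1 and RRAGA also fell in the first week, by 0.55 ± 0.16 (a change of -0.55, limma adjusted p = 0.0483) and 0.53 ± 0.14 (-0.53, adjusted p = 0.0366). The second PRKAG1 probe set fell in that week as well (-0.84 ± 0.21, limma adjusted p = 0.0298). The call on the brighter PRKAG1 probe set held in 4 of 20 alternatives and was lost without any 1 of 11 arrays, all but day 14 replicate 2, at adjusted p-values from 0.0556 to 0.133. That on RRAGA held in 11 of 20 and was lost without any day 7 array (0.0853 to 0.116), day 0 replicate 2 (0.0812) or 3 (0.0533) or day 21 replicate 3 (0.0512). With the poly-A covariate the adjusted p-values were 0.254 for PRKAG1 and 0.211 for RRAGA. Of the 8 translation genes 0 passed between day 21 and day 0 in limma, with 4 at an unadjusted p under 0.05, and EIF4G1, the scaffold of the cap-binding complex that the eIF4E-binding proteins oppose, fell in the first week. EIF4G1 read 2147, 2003 and 2204 at day 7 and 3404, 4799 and 2972 at day 0 (-0.79 ± 0.17, limma adjusted p = 0.0142), and the call was lost without day 7 replicate 2 (-0.75, 0.0601). The poly-A covariate also ended it, at -0.43 (adjusted p = 0.210). A second EIF4G1 probe set gave 0.13 ± 0.30 (adjusted p = 0.837), so the 2 probe sets of this gene disagreed. EIF4A1, the helicase of the same complex, passed the F test over age (limma adjusted p = 0.0413) with its lowest values at day 14 (1811, 1194 and 1291, against 4515, 2877 and 2500.1 at day 0), but not the comparisons of day 21 or day 7 with day 0 (adjusted p = 0.0875 and 0.159). On the hybridization control scale EIF4A1 (-1.07, limma adjusted p = 0.0207) and EIF4G1 (-0.92, 0.00698) passed between day 21 and day 0. As reported, EIF4G1 was at -0.54 there (limma adjusted p = 0.0552).

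Of the 9 tested genes of glucose uptake other than SLC2A4, 4 passed the F test over age. Between day 21 and day 0, 2 rose and 1 fell. VAMP2, a SNARE protein of the vesicles that carry GLUT4, read 764, 932 and 775 at day 0, 315, 253 and 297 at day 7, and 329.6, 432 and 396 at day 21. It fell by 1.51 ± 0.18 in the first week (a change of -1.51, limma adjusted p = 0.000982) and was at -1.10 ± 0.18 between day 21 and day 0 (adjusted p = 0.00320). RHOQ, a small GTPase tied to insulin-stimulated glucose uptake in fat cells, read 724, 1345 and 1511 at day 0, 2749, 3109.7 and 2615 at day 7, and 2608, 3012 and 3178 at day 21. It rose by 1.31 ± 0.23 in the first week (limma adjusted p = 0.00576) and by 1.36 ± 0.23 to day 21 (adjusted p = 0.00363). The calls on VAMP2 and RHOQ in both comparisons held in all 20 alternatives, that on the scale of the hybridization controls included.

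SLC2A3, the glucose transporter GLUT3, rose in the first week, a call that single arrays could end. It read 352, 676 and 687 at day 7 and 267, 264 and 228 at day 0 (1.12 ± 0.29, limma adjusted p = 0.0324), and 334, 507 and 248 at day 21 (0.46 ± 0.29 against day 0, adjusted p = 0.328). The first call was lost without any day 0 array (0.0556, 0.0697 and 0.0606), without day 7 replicate 2 (0.96, 0.120) or 3 (0.95, 0.114), on the hybridization control scale (0.81, 0.134) and with the poly-A covariate (1.153, 0.166). SLC2A12, the transporter GLUT12, read 304, 306 and 392 at day 21 and 91.4, 133.1 and 179.5 at day 0, and rose by 1.35 ± 0.30 (limma adjusted p = 0.0126). That call was lost without day 21 replicate 3 (1.23, 0.0570) and held in the other 18 of 19 alternatives in which it was tested. SLC2A12 was named after its values were seen. Endothelial markers had a summed signal over 7 of 7 listed markers of 4752 to 5749 at day 0, 7793 to 8568 at day 7 and 5692 to 8165 at day 21. The sum was thus separate from day 0 at day 7 and overlapped with it at day 21, where CDH5 (1.22) and TIE1 (0.86) rose and ENG (-1.06) fell (limma adjusted p = 0.00598, 0.0445 and 0.00555). The 5 of 7 macrophage markers tested summed to 982 to 1277 at day 0, 1349 to 1636 at day 7 and 963 to 1648 at day 21, and the 3 of 5 erythroid markers tested summed to 1445 to 2576 at day 0, 1001 to 1256 at day 7 and 1603 to 2504.5 at day 21. At day 7 the macrophage sum lay above day 0 and the erythroid sum below it. At day 21 both sums overlapped with day 0, but single markers moved in different directions. LAPTM5 (1.55) of the macrophage list and ALAS2 (1.40) of the erythroid list rose, and HBB (-0.84) fell (limma adjusted p = 0.00944, 0.00656 and 0.0349). The other tested markers of these lists did not pass between those ages, with CD163 at -0.93 (adjusted p = 0.161). No marker of these 3 lists was at 0, and their part in the results was not tested.

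**Figure D4:**
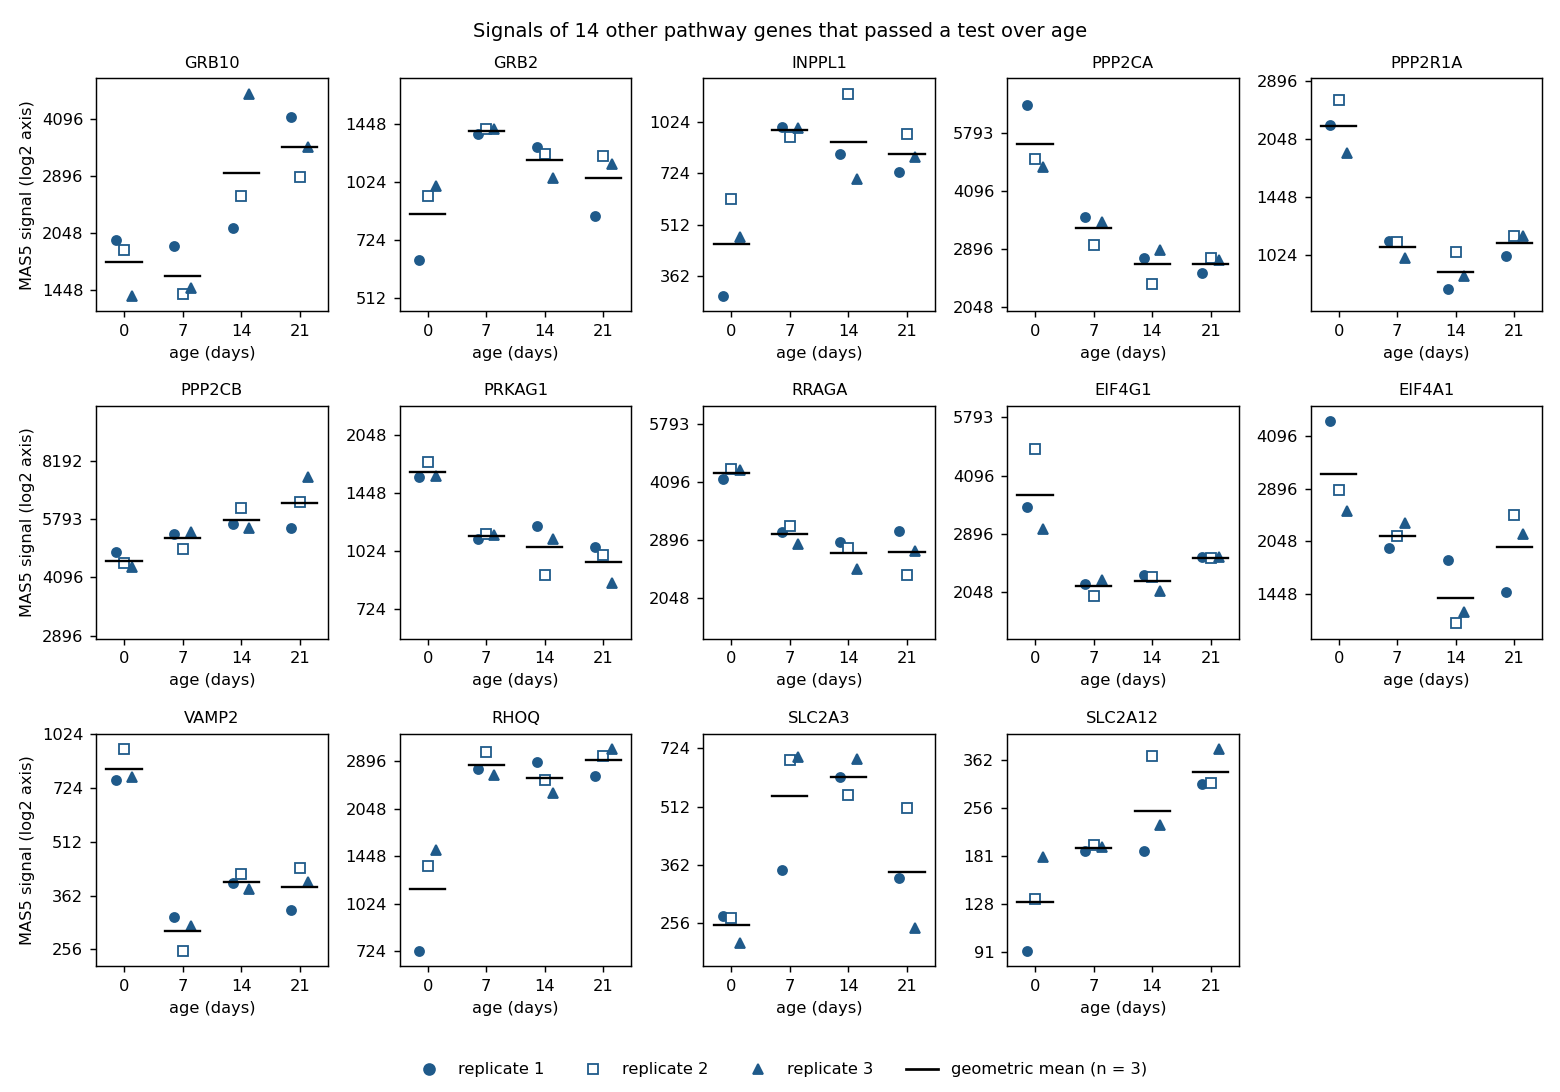
MAS5 signal (log2 axis, whose range differs between panels) of 14 other pathway genes that passed the F test over age or a comparison with day 0, against age in days, with a symbol for each replicate and a line for the geometric mean of the 3 arrays. VAMP2 lies between 253 and 432 at the later ages and at 763.7 or more at day 0, and RHOQ lies at 2307 or more at the later ages and at 1511 or less at day 0.

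The probe sets most like 2 of the members over the 12 arrays were taken by Pearson correlation of log2 signal, as a description without a test. For SLC2A4 probe set 1 they were KLHDC2 (r = 0.878), MAVS (0.822), TMEM52 (0.807), PKP4 (0.793) and MMADHC (0.786). For DDIT4 they were C1QC (0.872), ACVR1 (0.856), FMR1 (0.850), MYCBP2 (0.839) and F2RL2 (0.834). These values are the highest of all tested probe sets with 1 symbol and share the same 12 arrays and their scaling.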

How the data were processed

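Each deposited value is the intensity of 1 probe set on a linear scale. The submitters' processing notes name MAS5 without a version. The 2% trimmed mean was 500.1 on all 12 arrays, and array medians ran from 146.2 to 172.6. The deposited signals were put on the log2 scale and not normalized again. After removal of 124 control probe sets and the lowest 40% by mean log2 signal, 14399 remained. The model, in limma 3.58.1 under R 4.3.3, had 1 mean for each age, and eBayes used a variance trend. Of all probe sets, 10140 had 1 symbol in the probe table, 157 several and 13826 none. All 10 genes were named whatever their values, as were 6 pathway genes, of which PIK3R1 and GSK3B had no probe set with their symbol. Up to 3 further genes per list were chosen by their values, in order of p among those past the F test reported for them. The members and lists were chosen with earlier results of these data known. The alternatives were no filter, a 60% filter, quantile normalization, scaling on 27 hybridization controls, an offset of 29.7 before the logarithm, no variance trend, a covariate for the poly-A spike ratio, the replicate number as a block and leaving out each of 12 arrays. The fit was tested on simulated data. The number of arrays limits the precision. No sequence was used here. Figures were drawn with matplotlib 3.10.9.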

Additional observations from a re-analysis of the deposited data

How the results depend on the processing

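Of the member probe sets, 0 passed any of the 5 tests in the limma fits under 19 of the 20 alternatives listed above, and the exception was scaling on the hybridization controls, with 2 in the F test (AKT1 and PDPK1 probe set 1) and 3 between day 21 and day 0 (AKT1 and both of PDPK1). That setting also called 2105 probe sets in the F test, 2883 between day 21 and day 0 (397 higher and 2486 lower, against 952 and 705 as reported) and 2 between day 14 and day 7. With the poly-A covariate the counts over all probe sets were 215, 948, 222 between day 7 and day 0 and 0 between day 14 and day 7, against 1278, 1657, 1353 and 1. Without a variance trend they were 818 in the F test and 0 between day 14 and day 7, and with quantile normalization 2 there. Leaving out each array gave 566 to 1387 in the F test, 789 to 2023 between day 21 and day 0, 493 to 1669 between day 7 and day 0 and 0 to 3 between day 14 and day 7.

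The count of other pathway genes that rose by day 21 (5) was 3 with no filter, 2 without a trend and 2 on the hybridization control scale, where 12 fell, and 1 to 6 when single arrays were left out. Of those that passed in the first week (4 higher, 6 lower), 2 were higher on the hybridization control scale and 2 higher and 1 lower with the covariate. Single arrays left out gave 1 to 4 higher and 2 to 6 lower. 

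Changes that missed the test also changed sign. With quantile normalization AKT2 was at 0.017 at day 21 and 0.02 at day 7 and IGF1R at -0.028 at day 21. On the hybridization control scale these were DDIT4 (-0.15), IGF1R (-0.34) and GRB2 (-0.074) at day 21, SLC2A4 (-0.23), FOXO1 (-0.30) and PPP2CB (-0.11) at day 7, and PDPK1 probe set 1 between day 14 and day 7 (-0.041). With the covariate they were SLC2A4 (-0.37), FOXO1 (-0.29) and PDPK1 probe set 2 (0.001) at day 7 and IGF1R (-0.28) and TSC2 (0.065) at day 21. With single arrays left out, AKT2 ran from -0.18 to 0.16 at day 21 and at day 7, from -0.061 to 0.31 between day 14 and day 7 and from -0.30 to 0.063 between day 21 and day 14. SLC2A4 ran from -0.14 to 0.42 at day 7, -0.10 to 0.63 in the second week and -0.24 to 0.50 in the third, TSC2 from -0.17 to 0.067 and DDIT4 from -0.071 to 0.67 at day 21. In the second week PDPK1 ran from -0.019 to 0.074 (probe set 1) and -0.13 to 0.13 (probe set 2). FOXO1 ran from -0.80 to 0.076 at day 21 and -0.36 to 0.52 at day 7, IGF1R from -0.16 to 0.23 and -0.54 to 0.23, RHEB from -0.38 to 0.054 and -0.28 to 0.15, and INSR from -0.43 to 0.17 at day 7. The causes were not tested.

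The deviations of same-numbered replicates correlated between -0.20 and 0.11 over 18 pairs of arrays of different ages, 2 of them over 0.1. These correlations run over all tested probe sets at once, so they cannot show whether same-numbered replicates are related. With the replicate number as a block 0 member probe sets passed, and the calls on GRB2 (adjusted p = 0.0510), PRKAG1 (0.0773) and RRAGA (0.0597) in the first week and on PPP2CB at day 21 (0.0606) were lost.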

Other observations

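SLC2A4 probe set 2, one of the dim ones, followed the replicate number rather than the age. Its 4 arrays of replicate 2, 1 from each age, ran from 11.1 to 22.5, and the other 8 arrays ran from 81.0 to 163.3, a gap of 3.60-fold. The probe set was singled out after its values were seen. Among 23999 probe sets, 38 (0.158%) had all 4 arrays of replicate 2 below the other 8, 6 of them by more than 2-fold, and 1, this one, by as much as 3.60-fold. The same count was 41 for replicate 1 and 22 for replicate 3, with 0 by more than 2-fold in either. Above the other 8 arrays lay 46 for replicate 1 (3 by more than 2-fold), 15 for replicate 2 and 34 for replicate 3. SLC2A4 probe sets 1 and 3 did not show it, since replicate 2 was the lowest array of probe set 1 at day 0 only and of probe set 3 at day 21 only. What the arrays of replicate 2 share was not tested, and the labels name nothing beyond the number.

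AKT1 and AKT2, whose means did not differ past the test, both had their highest day 0 signal in replicate 3 (2499.7 and 1887), as did SLC2A4 probe set 1 (422), whereas DDIT4 and PDPK1 probe set 1 had their lowest day 0 signal there (2958 and 1631). In TSC2 (255) and PDPK1 probe set 2 (398) replicate 3 was the middle array of day 0. This is a description without a test, and the share of all probe sets with replicate 3 at either end was not counted.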
